A study of Homo sapiens with 24 samples.

Results

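The cells of these tumor models build cholesterol and fatty acids with enzymes whose genes are switched on by the SREBP transcription factors, and 30 of those genes were followed here under Ocoxin, a nutritional supplement that combines several plant extracts with vitamins, minerals and amino acids. They were chosen by symbol as known SREBP-driven genes and consisted of 18 enzymes of the sterol branch, 5 regulators and carriers (INSIG1, STARD4, SREBF1, SREBF2 and SCAP) and 7 enzymes of the fatty acid branch, out of 58051 genes in the count tables. All 30 were found in the tables, and all 30 passed the filter on low counts in each of the 4 cell lines. The mRNA had been sequenced from 24 libraries, 3 control and 3 Ocoxin-treated for each cell line: SW620 (colon adenocarcinoma, COAD), BxPC-3 (pancreatic adenocarcinoma, PAAD), LNCaP (prostate adenocarcinoma, PRAD) and HCC-70 (triple negative breast cancer, TNBC). All were grown in RPMI-1640 with 10% serum, and the treated cells then received Ocoxin for 48 h in the same medium with 1% serum. Ocoxin was diluted 1 in 700 for COAD and TNBC, 1 in 500 for PAAD and 1 in 50 for PRAD, doses that the study had selected as approximate IC50 values. The labels name the dilution for control libraries too, so the letter in the title gave the group, and the serum of the control medium was not given separately. Each tumor type was represented by 1 cell line. The question was whether Ocoxin altered the sterol and the fatty acid branch alike in each of them.

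SREBPs are made as precursors in the membrane of the endoplasmic reticulum, where SCAP escorts them and INSIG proteins hold them back as long as sterols are plentiful. When sterols run low, the complex moves to the Golgi, the factors are cut free, and they enter the nucleus and bind sterol regulatory elements, usually beside sites of NF-Y, a factor that binds CCAAT boxes. SREBF2 encodes SREBP-2, which drives mainly the sterol pathway, while SREBF1 encodes SREBP-1, which drives mainly fatty acid synthesis. Tumor cells in medium poor in lipoproteins depend on this system for their membranes.

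The promoters were searched because these genes are thought to answer to 1 system. RefSeq windows of 300 bases (GRCh38.p14, 250 bases before to 50 after the transcription start) were on hand for 26 members and not for ACAT2, FDFT1, SQLE and FASN. On both strands, a CCAAT box was present in 20 of the 26 members (76.9%), in 13 of 15 sterol, 3 of 5 regulator and 4 of 6 fatty acid genes, against 34.6% of all 35116 windows. Some members had several windows, and counted by window 24 of 35 (68.6%) held the box. The sterol regulatory element, searched as TCACNCCAC on both strands, was found in the window of SREBF2 and of no other member (1 of 26). Counted by window this was 1 of 35 (2.86%), against 1.13% of all windows. A match was a match of letters only. Its absence said nothing of binding outside the window, nor of sites within it whose letters differ from those searched. Stretches are given 5′ to 3′ on the strand of the gene for members that the results below turn on, from both branches and from SREBF2, with the matches in capitals. ATTGG is the CCAAT box read on the opposite strand.
HMGCS1 (chr5:43313498-43313577, minus strand, the last 15 bases within an annotated first exon): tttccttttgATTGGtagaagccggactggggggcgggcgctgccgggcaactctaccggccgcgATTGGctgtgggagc
IDI1 (chr10:1049222-1049344, minus strand): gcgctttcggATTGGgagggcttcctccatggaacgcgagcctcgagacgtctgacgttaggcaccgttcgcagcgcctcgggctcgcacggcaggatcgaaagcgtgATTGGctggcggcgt
MSMO1 (chr4:165327474-165327649, plus strand): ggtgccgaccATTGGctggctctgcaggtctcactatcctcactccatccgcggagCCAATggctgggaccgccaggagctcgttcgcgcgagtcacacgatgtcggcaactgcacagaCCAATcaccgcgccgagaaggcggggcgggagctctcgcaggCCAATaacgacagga
TM7SF2 (chr11:65111788-65111812, plus strand): ccgagcgccgATTGGctggtgtgct
STARD4 (chr5:111512651-111512706, minus strand): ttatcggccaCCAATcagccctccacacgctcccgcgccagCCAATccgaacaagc
SREBF2 (chr22:41832962-41833013, plus strand): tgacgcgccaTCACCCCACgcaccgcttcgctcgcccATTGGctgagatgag
SCD (chr10:100346994-100347061, plus strand): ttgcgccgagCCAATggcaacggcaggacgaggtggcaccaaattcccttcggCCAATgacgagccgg
HMGCS1, IDI1, STARD4 and SCD carried 2 CCAAT boxes in these stretches, MSMO1 4, and TM7SF2 and SREBF2 1. In the annotation of the count tables MSMO1 starts at position 165327623, so the end of its stretch, with the last box, lies past that start. In SREBF2 the box lay beside the sterol regulatory element.

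Levels are given as CPM, the counts scaled to a common library total after TMM normalization within a cell line, so they describe shares of the mRNA, and fewer cells and less RNA per cell cannot be told apart from them. The COAD libraries had total counts of 25160757 to 34397801 and the PAAD libraries 31101178 to 34231106. PRAD libraries had 9063968 to 9520969, the fewest, and TNBC libraries 36863490 to 39009959. The PRAD libraries had been counted in a separate run as single reads, and the other libraries with both reads of a fragment, so levels were not compared between PRAD and the rest. Of the defining markers, VIL1 (469 to 527 CPM in COAD), CEACAM6 (1270 to 1620 CPM in PAAD), KLK3 (377 to 410 CPM in PRAD) and KRT6B (204 to 401 CPM in TNBC) were highest in the labelled cell line. The keratins listed for PAAD or TNBC were high in both, KRT5 at 2430 to 3310 CPM in PAAD and 1410 to 1670 CPM in TNBC and KRT19 at 993 to 1420 CPM and 1130 to 1600 CPM, and KRT17, listed for both, was at 1670 to 2470 CPM and 146 to 282 CPM. CDX1 was at or below 0.0997 CPM in COAD and ESR1 reached 5.51 to 8.18 CPM in TNBC. TMPRSS2, listed for PRAD, was at 221 to 268 CPM there but also at 203 to 212 CPM in TNBC and 85 to 94.2 CPM in COAD. The fibroblast gene COL1A2 and the leukocyte gene PTPRC did not exceed 0.214 CPM in any library, and COL1A1 was at 46.5 to 65.4 CPM in PRAD. PECAM1, from the same list of other cell types, was at 3.68 to 5.73 CPM in PAAD and 2.17 to 3.77 CPM in COAD. Reads on bases that 2 genes share were dropped by the counting, and strand was not used, so values of ACAT2 (52.3% of exonic bases shared), FDPS (18.6%), IDI1 (17.9%) and HMGCS1 (15%) rest on the remaining bases. CYP51A1 (82.2% shared) and HSD17B7 are also uncertain because pseudogenes took reads, up to 68.4% of the summed counts for CYP51A1 and 24.4% for HSD17B7. Nothing states that the 3 libraries of a group came from separate cultures, so p-values measure the spread between these libraries, and an exact permutation test of 3 against 3 could not fall below p = 0.1. Where groups are said not to overlap, the share of all genes that separate in this way was not counted. For genes picked by a low p, such separation is close to given and adds no evidence.

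In the control libraries, SCD, the desaturase that makes oleate, had the highest level per kilobase of the 30 genes in every cell line, at 312 ± 2.34 CPM per kb in PAAD, 239 ± 6.62 in COAD and 221 ± 8.84 in TNBC (mean ± SD of 3 controls), and at 81.8 ± 0.723 within the separately counted PRAD libraries. HMGCS1, which makes HMG-CoA at the entrance of the mevalonate pathway, had 141 ± 3.03 CPM per kb in PAAD but 53.5 ± 1.27 in COAD and 40.5 ± 0.0687 in TNBC. The lowest per kilobase of full exonic length were FADS2 in PAAD (1.11 ± 0.0681), CYP51A1 in COAD (1.55 ± 0.0824) and PRAD (2.96 ± 0.475), and STARD4 in TNBC (2.33 ± 0.22). The values of CYP51A1 are understated, since 82.2% of its exonic bases are shared and reads on them were dropped, so its rank is uncertain.

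In PAAD cells, Ocoxin downregulated 6 of the 30 genes and upregulated none, and all 6 were enzymes of the sterol branch. Over all 17280 genes tested, 8.33% were altered, 3.62% of them lower and 4.72% higher as shares of the genes tested. Altered means an adjusted p under 0.05 by edgeR's quasi-likelihood test with Benjamini-Hochberg adjustment over all genes. The largest decrease was in HMGCS1, whose 3 control libraries held 655, 657 and 681 CPM and whose Ocoxin libraries held 448, 442 and 445 CPM. Each treated library stood below every control (log2 fold change -0.58 ± 0.049, adjusted p = 2.11e-06), a level of 0.67 times the control. SQLE, the squalene epoxidase that performs the first oxygenation of the pathway, went from 220, 227 and 219 CPM to 173, 166 and 172 CPM (log2 fold change -0.38 ± 0.052, adjusted p = 0.000277). MSMO1, a C4-demethylating oxidase that acts after the sterol ring has closed, had 155, 146 and 158 CPM in controls and 123, 111 and 127 CPM with Ocoxin (log2 fold change -0.35 ± 0.062, adjusted p = 0.00271). Neither gene showed any overlap between the groups. The thiolase gene ACAT2, which supplies acetoacetyl-CoA, was read at 73.9, 67.8 and 64 CPM without and 53.2, 55 and 55.8 CPM with Ocoxin (log2 fold change -0.33 ± 0.067, adjusted p = 0.00659). For FDFT1, the squalene synthase at the branch point towards sterols, the values were 567, 537 and 508 CPM and 461, 447 and 440 CPM (log2 fold change -0.26 ± 0.054, adjusted p = 0.00789), and for the isomerase IDI1 they were 140, 141 and 146 CPM and 120, 119 and 127 CPM (log2 fold change -0.23 ± 0.055, adjusted p = 0.0184). In these 3 genes, too, all treated libraries lay below all controls. LSS, the cyclase that forms lanosterol, overlapped between 52.4, 49.9 and 44.5 CPM and 56.5, 54.3 and 47.5 CPM (log2 fold change 0.11 ± 0.079, adjusted p = 0.455). The other 11 sterol genes, which did not pass the test, had log2 fold changes between -0.27 (HSD17B7) and 0.018 (DHCR7).

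Neither the regulators nor the fatty acid genes passed the test in PAAD, in a fit that did not pair libraries by replicate number. INSIG1, which retains the SREBPs and is itself a classical SREBP target, held 232, 209 and 221 CPM in controls and 229, 218 and 225 CPM with Ocoxin (log2 0.02, adjusted p = 0.875, 95% interval -0.098 to 0.14). SREBF2 was at 304, 313 and 279 CPM and 302, 313 and 284 CPM (log2 0.0075, adjusted p = 0.957), and SREBF1 at 351, 380 and 298 CPM and 403, 418 and 329 CPM (log2 0.16, adjusted p = 0.303). In all 3 regulators the groups overlapped. FASN, the fatty acid synthase, had 281, 334 and 293 CPM in controls and 371, 361 and 315 CPM with Ocoxin (log2 0.20, adjusted p = 0.0963), and SCD had 1680, 1680 and 1660 CPM and 1770, 1770 and 1670 CPM (log2 0.053, adjusted p = 0.564). FADS2, a desaturase of polyunsaturated fatty acids with low levels here, had all treated libraries above all controls (13.1, 11.8 and 11.9 against 15.9, 14.3 and 13.7 CPM) without passing the test (adjusted p = 0.118). The remaining fatty acid genes lay between -0.18 (ELOVL6) and 0.08 (ACLY) on the log2 scale, and of the carriers STARD4 was at -0.18 and SCAP at 0.11.

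Libraries with the same replicate number deviated together in PAAD, and a fit with the replicate number as a block called 14 of the 30 members, with 23.1% of all genes called. To the 6 it added MVD, TM7SF2, HSD17B7, STARD4 and ELOVL6 as lower and SREBF1 (log2 0.16, adjusted p = 0.000534), FASN (log2 0.20, adjusted p = 0.00761) and FADS2 (log2 0.26, adjusted p = 0.025) as higher. These 3 higher calls were lost when the trend with length and GC content was removed in the same fit, which called 12 members lower and 0 higher among 3387 genes called in all. Leaving out 1 library ended the call of IDI1 without control replicate 2 (adjusted p = 0.0577), Ocoxin replicate 1 (0.0899) or Ocoxin replicate 2 (0.125) and that of FDFT1 without Ocoxin replicate 2 (0.0538), and it added MVD without control replicate 3 (log2 -0.30, adjusted p = 0.0134) and SREBF1 (0.0449) and FASN (0.0185) without Ocoxin replicate 3. HMGCS1, SQLE, MSMO1 and ACAT2 stayed altered under every alternative run. When the dependence of fold changes on gene length and GC content was removed, MVK, MVD, TM7SF2 and ACACA were added as lower, 10 members in all, and without the filter on low counts FASN was called higher (adjusted p = 0.0114).

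**Figure D1:**
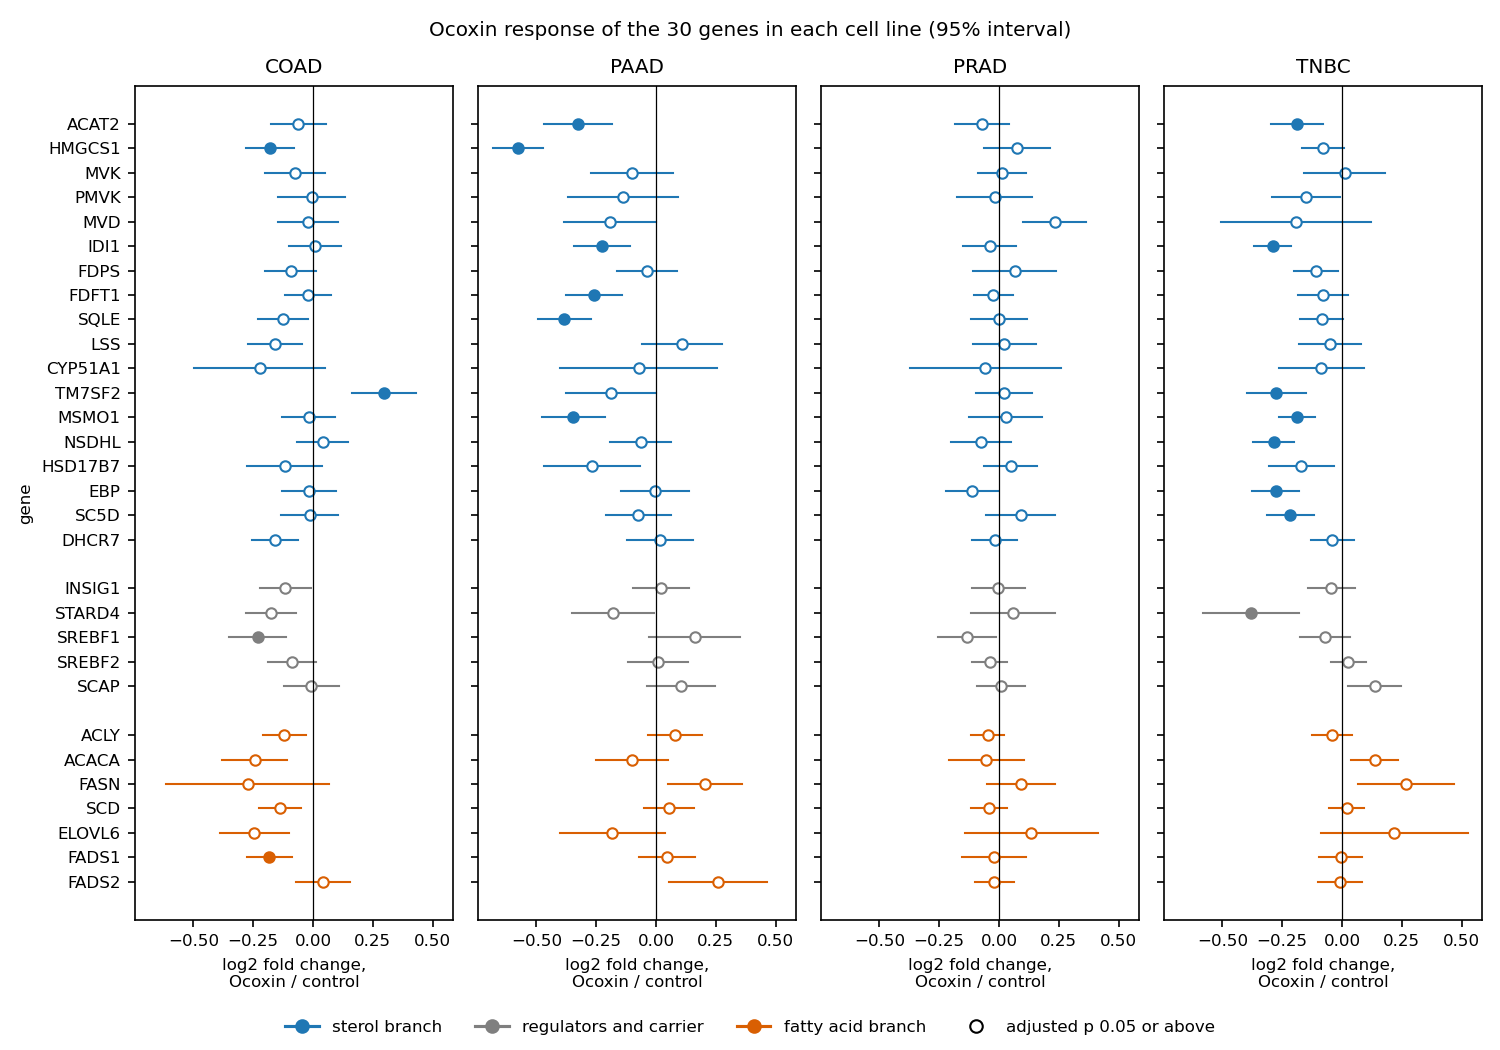
Log2 fold change of Ocoxin over control (x axis, log2 units) for the 30 genes (y axis, grouped by branch) in each cell line, as points with 95% intervals from edgeR, filled where the adjusted p was under 0.05. Filled points lie on the left among the sterol genes in PAAD and TNBC, with HMGCS1 in PAAD farthest from 0 at -0.58, and PRAD has no filled point. Libraries were not paired by replicate number in these fits.

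In TNBC cells 8 of the 30 genes were downregulated and none was upregulated, 7 of them sterol enzymes and the eighth STARD4, a carrier that moves cholesterol between membranes. Here the background was high, since 21% of the 17352 genes tested were altered, 11.3% as lower and 9.65% as higher. IDI1, which isomerizes the 5-carbon isoprenoid unit, fell from 403, 392 and 421 CPM in controls to 333, 332 and 330 CPM with Ocoxin (log2 fold change -0.29 ± 0.035, adjusted p = 0.000173). NSDHL, a C4-demethylation dehydrogenase, held 138, 139 and 142 CPM and 115, 117 and 112 CPM (log2 fold change -0.29 ± 0.039, adjusted p = 0.000328), and EBP, the sterol isomerase, 95.7, 99.2 and 97.9 CPM and 83.6, 81.2 and 76.9 CPM (log2 fold change -0.28 ± 0.045, adjusted p = 0.00114). MSMO1 had 398, 393 and 394 CPM in controls and 347, 355 and 337 CPM in treated cells (log2 fold change -0.19 ± 0.034, adjusted p = 0.00216). The groups did not overlap in any of these 4 genes. TM7SF2, a C14 sterol reductase, was at 49.2, 53 and 52 CPM without and 44.2, 43.7 and 39.7 CPM with Ocoxin (log2 fold change -0.27 ± 0.057, adjusted p = 0.00495). SC5D, the C5 desaturase, gave 125, 129 and 132 CPM and 114, 114 and 105 CPM (log2 fold change -0.22 ± 0.046, adjusted p = 0.00549). ACAT2 was at 150, 152 and 145 CPM and 135, 137 and 120 CPM (log2 fold change -0.19 ± 0.051, adjusted p = 0.0204), and STARD4, scarce in these cells, at 12, 13.2 and 14.5 CPM and 9.74, 10.3 and 10.5 CPM (log2 fold change -0.38 ± 0.092, adjusted p = 0.0114). In each of these 4 genes as well, the treated libraries were all below the controls.

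The 2 genes with the strongest decrease in PAAD did not pass the test in TNBC. HMGCS1 held 190, 190 and 190 CPM in controls and 178, 189 and 173 CPM with Ocoxin (log2 -0.08, adjusted p = 0.191), and SQLE 429, 406 and 409 CPM and 403, 402 and 368 CPM (log2 -0.085, adjusted p = 0.174). Treated libraries of both lay below the controls by less than the test required. LSS was at 97.7, 95.8 and 97.8 CPM and 101, 96.6 and 83.9 CPM (log2 -0.051, adjusted p = 0.596), and INSIG1 at 295, 294 and 285 CPM and 292, 295 and 261 CPM (log2 -0.044, adjusted p = 0.54). SREBF1 had 274, 289 and 278 CPM and 281, 273 and 245 CPM (log2 -0.072, adjusted p = 0.33), and SREBF2 928, 943 and 903 CPM and 969, 949 and 908 CPM (log2 0.027, adjusted p = 0.636, 95% interval -0.048 to 0.10). The groups overlapped in these 4 genes, with Ocoxin replicate 3 the lowest of the 3 treated libraries in each. Of SREBF1, treated libraries 2 and 3 were below every control, and of SREBF2, treated libraries 1 and 2 were above every control. The other sterol genes that did not pass the test lay between -0.19 (MVD) and 0.011 (MVK), and SCAP, the escort of the SREBPs, had a log2 fold change of 0.14 (adjusted p = 0.0753).

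No fatty acid gene passed the test in TNBC in the fit without the replicate block, whereas the block fit given below called 3 of them higher. FASN held 611, 564 and 547 CPM in controls and 753, 715 and 604 CPM with Ocoxin (log2 0.27, adjusted p = 0.068). Its treated libraries 1 and 2 exceeded every control, while replicate 3 did not. ACACA, the acetyl-CoA carboxylase that commits carbon to fatty acids, had 135, 127 and 137 CPM and 143, 141 and 154 CPM, all treated above all controls (log2 0.14, adjusted p = 0.0533). SCD was at 1180, 1130 and 1230 CPM and 1200, 1210 and 1190 CPM (log2 0.019, adjusted p = 0.743, 95% interval -0.055 to 0.093). ELOVL6 had a log2 fold change of 0.22, and ACLY, FADS1 and FADS2 lay between -0.042 and -0.0054.

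With the replicate block, whose pairing held in TNBC, 17 members were called, against 33.9% of all genes. Besides the 8, these were PMVK, MVD, FDPS, SQLE and HSD17B7 as lower and SCAP, ACACA, FASN (log2 0.26, adjusted p = 8.36e-11) and ELOVL6 (log2 0.22, adjusted p = 0.00229) as higher. Of the single libraries, control replicates 1 and 2 each decided the call of ACAT2 (adjusted p = 0.0745 and 0.0839 without them) and Ocoxin replicate 1 that of STARD4 (0.0537). Calls were gained for SCAP without control replicate 2 (0.0281), PMVK without control replicate 3 (0.0149), HSD17B7 without Ocoxin replicate 1 (0.0383) and FASN without Ocoxin replicate 3 (log2 0.35, adjusted p = 6.95e-05). FASN was also called higher by DESeq2 (adjusted p = 0.000704), without the filter on low counts (0.000212) and after removal of the length and GC trend (0.00991). IDI1, NSDHL, EBP, MSMO1, TM7SF2 and SC5D stayed altered under every alternative run.

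In COAD cells 4 of the 30 genes were altered, 3 lower and 1 higher, against 2.55% of the 17659 genes tested (1.09% lower and 1.47% higher). The 3 lower genes belonged to 3 different groups. HMGCS1 of the sterol branch had 258, 247 and 250 CPM in controls and 218, 217 and 232 CPM with Ocoxin (log2 fold change -0.18 ± 0.048, adjusted p = 0.0472). SREBF1 of the regulators had 187, 194 and 181 CPM and 166, 168 and 144 CPM (log2 fold change -0.23 ± 0.057, adjusted p = 0.0323). FADS1 of the fatty acid branch, the delta-5 desaturase, had 402, 396 and 411 CPM and 348, 354 and 364 CPM (log2 fold change -0.18 ± 0.045, adjusted p = 0.03). Treated libraries lay below all controls in each. TM7SF2 was the gene that rose, from 40.7, 45.8 and 45.1 CPM to 56, 52.9 and 52.5 CPM (log2 fold change 0.30 ± 0.065, adjusted p = 0.0146), again without overlap.

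The other fatty acid genes of COAD pointed down without passing the test, apart from FADS2 (log2 0.042). ACACA (log2 -0.24, adjusted p = 0.0543) and ELOVL6 (log2 -0.25, adjusted p = 0.0624), an elongase of long saturated chains, came closest to the threshold. FASN held 801, 828 and 660 CPM in controls and 692, 661 and 542 CPM with Ocoxin (log2 -0.27, adjusted p = 0.416). Replicate 3 was the lowest library of FASN in both groups, and the groups overlapped. SCD had 1310, 1240 and 1290 CPM and 1160, 1170 and 1170 CPM, with all treated libraries lower (log2 -0.14, adjusted p = 0.091), and ACLY, the citrate lyase that provides cytosolic acetyl-CoA, likewise (log2 -0.12, adjusted p = 0.164).

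Among the other sterol and regulator genes of COAD, SQLE overlapped between 198, 186 and 205 CPM and 178, 175 and 188 CPM (log2 -0.12, adjusted p = 0.22). LSS did not overlap, with 76.2, 73.5 and 78.4 CPM in controls and 69, 66.7 and 68.3 CPM with Ocoxin (log2 -0.16, adjusted p = 0.127), and INSIG1 did not either, with 106, 103 and 110 CPM and 95.4, 101 and 98.6 CPM (log2 -0.12, adjusted p = 0.267). SREBF2 was at 367, 366 and 366 CPM in controls and 363, 346 and 325 CPM with Ocoxin (log2 -0.087, adjusted p = 0.396). In these 3 genes the treated libraries were lower by less than the test required. The sterol genes MSMO1 (95% interval -0.13 to 0.093), NSDHL (-0.067 to 0.15), EBP (-0.13 to 0.097) and SC5D (-0.13 to 0.11), all altered in TNBC, had log2 intervals on both sides of 0 in COAD. The remaining sterol genes lay between -0.22 (CYP51A1) and 0.0089 (IDI1), STARD4 was at -0.18 (adjusted p = 0.0644) and SCAP at -0.0068.

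The COAD calls were close to the threshold. No member was altered without control replicate 1 or without Ocoxin replicate 2, where TM7SF2 had adjusted p = 0.118 and 0.0669 and HMGCS1 0.282 and 0.296, and TM7SF2 alone was altered without control replicate 2. SREBF1 was lost without Ocoxin replicate 3 (0.15), FADS1 without control replicate 3 (0.0603) and HMGCS1 and FADS1 without Ocoxin replicate 1 (0.11 and 0.0843), while ACACA and ELOVL6 became lower without control replicate 3 or without Ocoxin replicate 1 (adjusted p = 0.0392 and 0.00769 for ELOVL6). HMGCS1 was also lost with DESeq2 size factors (adjusted p = 0.0535), and with all 24 libraries in 1 fit TM7SF2 alone was called. DESeq2 called 8 members in COAD, adding DHCR7, STARD4, ACACA and SCD as lower. With the trend in length and GC content removed, 8 were called as well, FADS1 was lost and FASN was lower (log2 -0.29, adjusted p = 0.00409).

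**Figure D2:**
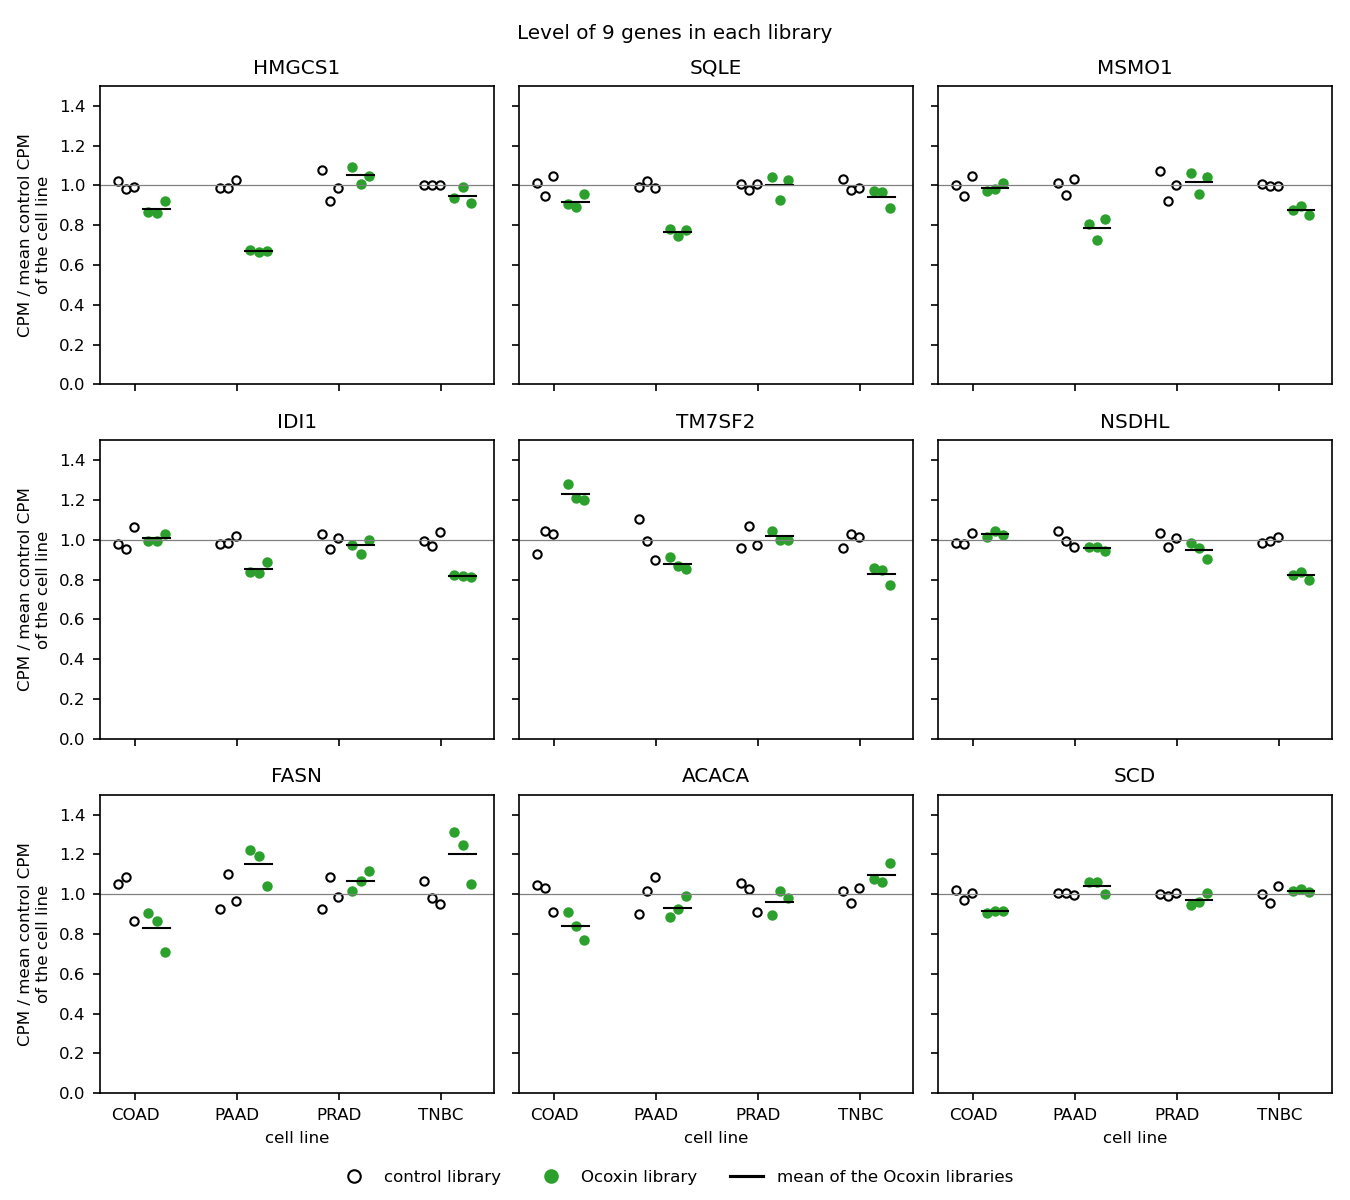
CPM of 9 genes in each of the 24 libraries divided by the mean of the controls of the same cell line (y axis, ratio, starting at 0), for control libraries (open points), Ocoxin libraries (filled points) and the Ocoxin mean (bar). HMGCS1 stands lowest in PAAD, IDI1 is lower in PAAD and TNBC, and TM7SF2 is above the controls in COAD and below them in TNBC.

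In PRAD cells none of the 30 genes was altered, where 2.98% of the 17070 genes tested were (0.58% lower and 2.4% higher). At an unadjusted p under 0.05 by the same test, 3 members were counted, against 3547 of the 17070 genes tested. DESeq2 called 0 members as well. The closest was MVD, the decarboxylase that closes the mevalonate steps, with 74.1, 83.4 and 81.2 CPM in controls and 97, 90.5 and 93.1 CPM with Ocoxin (log2 fold change 0.23 ± 0.057, adjusted p = 0.0746), each treated library above each control. HMGCS1 held 182, 156 and 167 CPM and 185, 170 and 177 CPM (log2 0.074, adjusted p = 0.531, 95% interval -0.064 to 0.21), an interval that does not reach the decrease measured in PAAD. SQLE had 147, 143 and 147 CPM and 152, 135 and 150 CPM (95% interval -0.12 to 0.12), and LSS 73.3, 74.3 and 78 CPM and 73.3, 74.7 and 81.3 CPM (-0.11 to 0.15). In these 3 sterol genes the groups overlapped. INSIG1 was at 176, 167 and 172 CPM and 169, 163 and 182 CPM (95% interval -0.11 to 0.11), again with overlap. SREBF1 had 346, 389 and 346 CPM in controls and 319, 337 and 330 CPM with Ocoxin (log2 -0.13, adjusted p = 0.198), and SREBF2 350, 364 and 350 CPM and 347, 339 and 349 CPM (log2 -0.04, adjusted p = 0.529). Treated libraries of both SREBP genes were below the controls, by small amounts. FASN was read at 652, 765 and 693 CPM and 716, 749 and 785 CPM (log2 0.092, adjusted p = 0.445), and SCD at 440, 434 and 442 CPM and 415, 422 and 441 CPM (log2 -0.041, adjusted p = 0.527), both with overlap. Duplicate removal on single reads limits abundant genes in PRAD. FASN, SCD and ACLY had 75.1, 81.8 and 67.1 CPM per kb in its controls, so their changes may be understated. To a lesser degree this may hold for other members with high levels, such as INSIG1 (47 CPM per kb) and SREBF2 (46.9), and their intervals may be too narrow. The other sterol genes lay between -0.11 (EBP) and 0.09 (SC5D), the other fatty acid genes between -0.052 (ACACA) and 0.14 (ELOVL6), STARD4 at 0.059 and SCAP at 0.0095 on the log2 scale. The replicate block, whose pairing held in PRAD, called 8.5% of all genes and none of the members, but 13 of them together with the removal of the length and GC trend, when 5479 genes were called in all. Removing the trend with length and GC content moved the median of all genes by more than elsewhere, to -0.061 on the log2 scale, and called SREBF1 lower (log2 -0.24, adjusted p = 0.0167), while MVD was called higher without the filter on low counts (adjusted p = 0.0412).

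The branches are set side by side by their medians. The median log2 fold change of the 18 sterol genes was -0.16 in PAAD, -0.16 in TNBC, -0.042 in COAD and 0.0073 in PRAD. Below 0 were 16, 17, 15 and 8 of these genes. That of the 7 fatty acid genes was 0.053, 0.019, -0.18 and -0.02 in the same order, and 2, 3, 6 and 5 of the 7 were below 0. Over all genes tested the medians were 0.0027, 0.0056, -0.0053 and 0.0088, with 49.4%, 49%, 51.4% and 47.6% of genes below 0. The median of the 5 regulators was lowest in COAD, at -0.12. In PAAD and TNBC the sterol branch thus lay lower than the fatty acid branch, and in COAD the order was the opposite. These medians describe the lists and were not tested.

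Single libraries were compared by branch as well. As the mean deviation from the controls over the 18 sterol genes (log2), the PAAD controls gave 0.084, 0.012 and -0.096 and the PAAD Ocoxin libraries -0.14, -0.18 and -0.19. The TNBC controls gave 0.0082, 0.013 and -0.021 against -0.099, -0.11 and -0.25 with Ocoxin. In both cell lines every treated library was below every control, and Ocoxin replicate 3 was the lowest in TNBC. The COAD sterol values did not overlap either, by a small margin, with -0.0061, -0.032 and 0.038 in controls and -0.072, -0.043 and -0.038 with Ocoxin. The COAD regulators had -0.11, -0.089 and -0.17 with Ocoxin, all below controls that lay within 0.004 of 0. For the fatty acid genes the COAD controls gave 0.025, 0.028 and -0.053 and the treated libraries -0.11, -0.17 and -0.22, without overlap. The PAAD fatty acid values were -0.023, 0.0051 and 0.018 in controls and 0.043, 0.052 and 0.054 with Ocoxin, and the TNBC values 0.012, -0.055 and 0.043 and 0.096, 0.079 and 0.072. Here the treated libraries were all above the controls, and each was above the control of the same replicate number. As medians over the genes, the TNBC fatty acid values overlapped (0.0142, -0.059 and 0.0388 in controls, 0.0435, 0.0386 and 0.0075 with Ocoxin). The COAD sterol medians overlapped too (-0.0032, -0.0448 and 0.0457 against -0.0698, -0.0376 and -0.0189). The other separations given here held for medians as well.

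**Figure D3:**
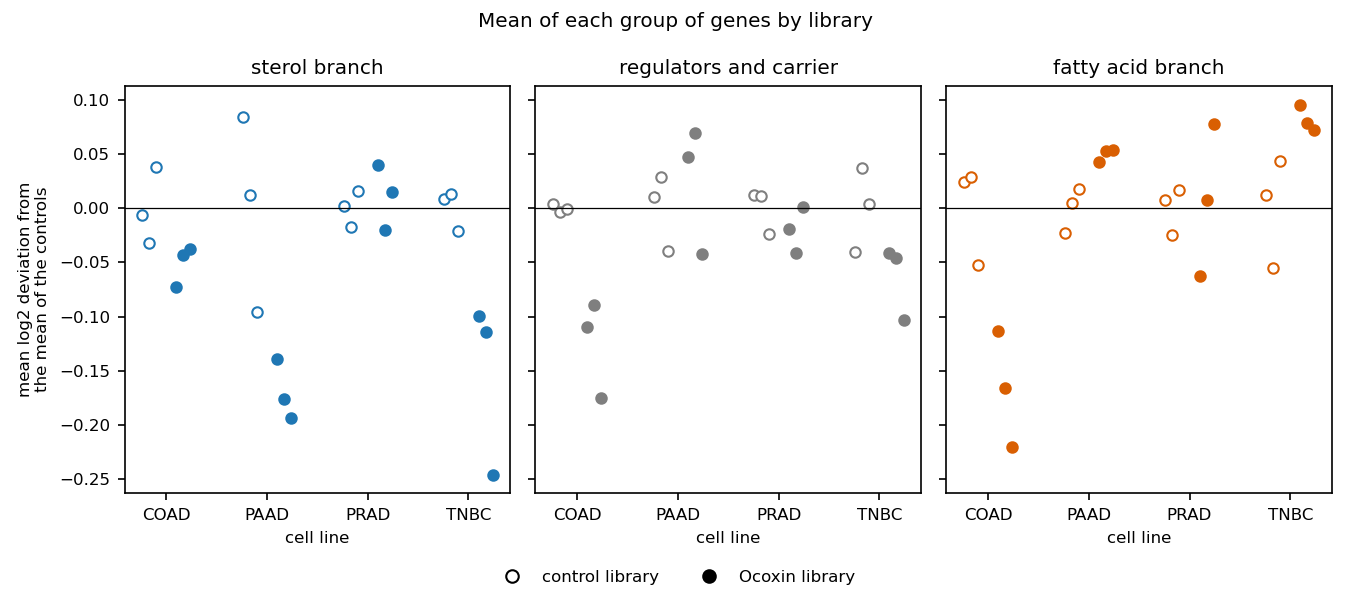
Mean log2 deviation from the mean of the controls (y axis) over the 18 sterol, 5 regulator and carrier and 7 fatty acid genes in each library, by cell line (x axis), with controls open and Ocoxin libraries filled. Treated libraries lie below the controls for the sterol genes in PAAD, TNBC and, narrowly, COAD and for the regulators and fatty acid genes in COAD, they lie above the controls for the fatty acid genes in PAAD and TNBC, and the sterol and fatty acid values of PRAD mix around 0. As medians, which are not drawn, the COAD sterol and the TNBC fatty acid values overlapped between the groups.

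Whether the response of a gene differed between cell lines was tested as the difference of 2 log2 fold changes, in a fit of all 24 libraries over 24631 genes. COAD and TNBC are the pair that received the same dilution. Their responses differed for 6 members, against 6.78% of all genes. Of the sterol genes, TM7SF2 (0.58 ± 0.093, adjusted p = 0.000114, COAD minus TNBC), NSDHL (0.34 ± 0.068, adjusted p = 0.00148), IDI1 (0.31 ± 0.067, adjusted p = 0.0031) and EBP (0.27 ± 0.081, adjusted p = 0.0347) responded more negatively in TNBC. The fatty acid genes FASN (-0.53 ± 0.14, adjusted p = 0.0364) and ACACA (-0.37 ± 0.097, adjusted p = 0.0171) differed in the other direction, being more negative in COAD. TM7SF2, IDI1 and NSDHL differed under every alternative run, whereas EBP, FASN and ACACA lost the call in at least 1 fit with a library left out, and the count fell to 3 without COAD control replicate 1 or 2, COAD Ocoxin replicate 3 or TNBC control replicate 2.

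COAD and PAAD, at different dilutions, differed for 8 members, against 3.44% of all genes. The 6 sterol genes were TM7SF2 (0.49 ± 0.098, adjusted p = 0.00332, COAD minus PAAD), HMGCS1 (0.40 ± 0.066, adjusted p = 0.000369), MSMO1 (0.33 ± 0.079, adjusted p = 0.0138), SQLE (0.26 ± 0.069, adjusted p = 0.0289), FDFT1 (0.24 ± 0.066, adjusted p = 0.035) and IDI1 (0.24 ± 0.068, adjusted p = 0.0431), all more negative in PAAD. The fatty acid genes were ACLY (-0.20 ± 0.056, adjusted p = 0.0432) and SCD (-0.19 ± 0.051, adjusted p = 0.0331), more negative in COAD. Only HMGCS1 and TM7SF2 kept the call under every alternative run, and the count fell to between 2 and 5 without PAAD control replicate 1 or 2, PAAD Ocoxin replicate 2 (2 members), COAD control replicate 1 or 2, or COAD Ocoxin replicate 2 or 3. Cell line and dilution cannot be told apart in this pair or in those that follow.

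PAAD and TNBC both had downregulated sterol genes. Their responses differed for 5 members (4.01% of all genes). HMGCS1 (-0.49 ± 0.066, adjusted p = 9.02e-06, PAAD minus TNBC) and SQLE (-0.29 ± 0.069, adjusted p = 0.0107) were more negative in PAAD. NSDHL (0.23 ± 0.068, adjusted p = 0.0462) and EBP (0.28 ± 0.081, adjusted p = 0.0405) were more negative in TNBC, and FADS2 was higher in PAAD (0.28 ± 0.078, adjusted p = 0.0384). With the replicate block 10 members differed (10.4% of all genes), among them these 5. HMGCS1 and SQLE differed under every alternative run, and the count fell to 2 without PAAD control replicate 2 or 3, PAAD Ocoxin replicate 1 or 2, TNBC control replicate 1, 2 or 3 or TNBC Ocoxin replicate 3, and to 3 without TNBC Ocoxin replicate 2.

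Against PRAD, PAAD differed for 4 members (3.29% of all genes), namely HMGCS1 (-0.62 ± 0.069, adjusted p = 3.66e-07, PAAD minus PRAD), SQLE (-0.35 ± 0.072, adjusted p = 0.00283), MSMO1 (-0.34 ± 0.083, adjusted p = 0.0135) and FADS2 (0.31 ± 0.08, adjusted p = 0.0247). MSMO1 was lost without PRAD control replicate 2 or PAAD Ocoxin replicate 2, and FADS2 without PRAD Ocoxin replicate 1 or 2, PAAD control replicate 2 or 3 or PAAD Ocoxin replicate 1. The block raised this to 10 members (7.87% of all genes). PRAD and TNBC differed for SC5D (0.29 ± 0.084, adjusted p = 0.0492, PRAD minus TNBC) and STARD4 (0.42 ± 0.12, adjusted p = 0.04), against 3.59% of all genes, and for 7 members with the block (8.87%). Both calls were lost without PRAD control replicate 2 or 3, PRAD Ocoxin replicate 1, TNBC control replicate 2 or 3 or TNBC Ocoxin replicate 1 or 2, and 1 of them without PRAD Ocoxin replicate 3, TNBC control replicate 1 or TNBC Ocoxin replicate 3. COAD and PRAD differed for 0 members by edgeR (0.832% of all genes) and for 1 by DESeq2, TM7SF2, and HMGCS1 differed without PRAD control replicate 1.

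**Figure D4:**
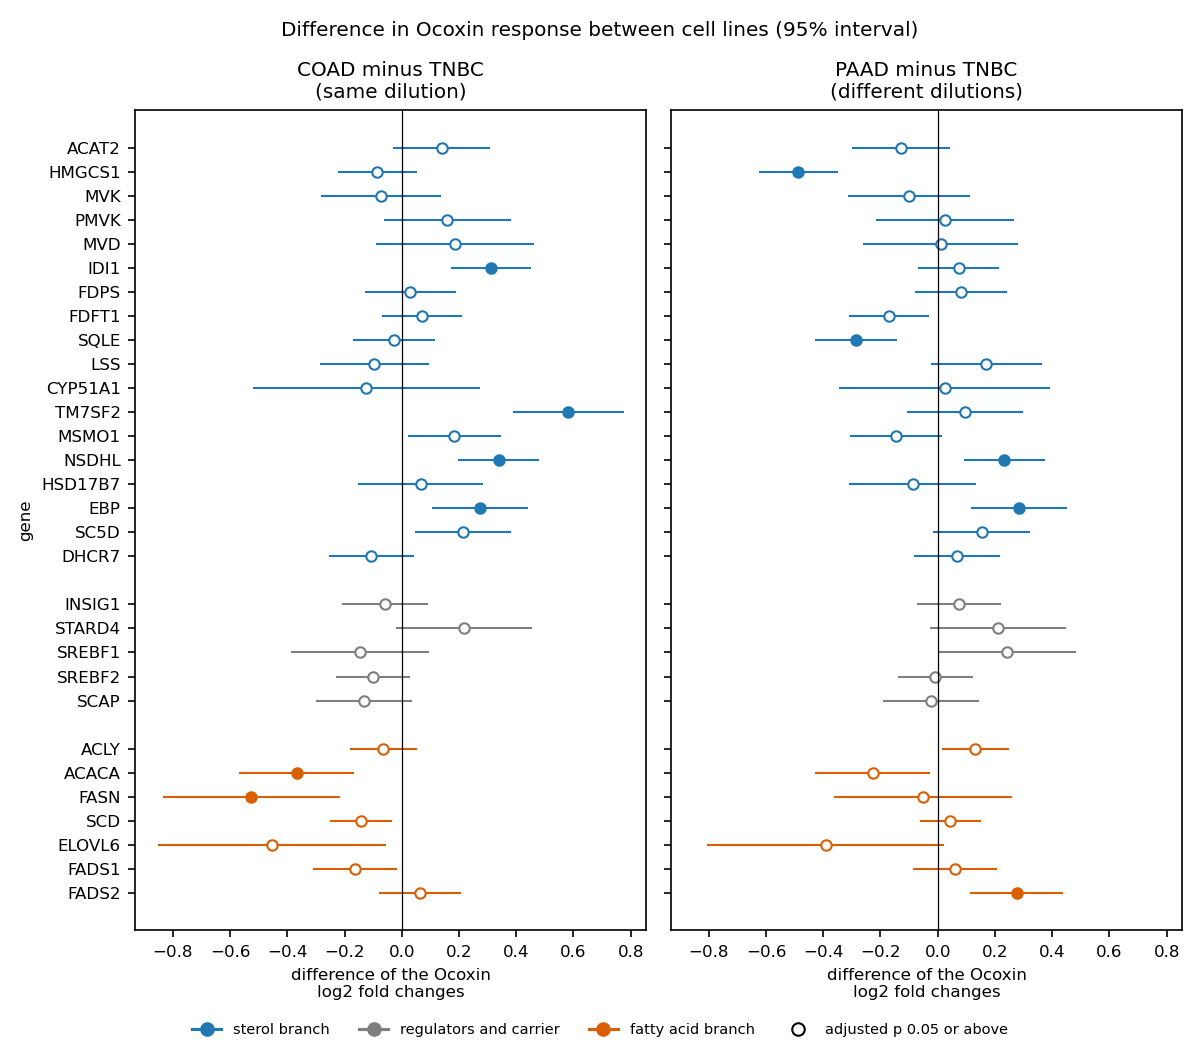
Difference of the Ocoxin log2 fold changes (x axis, log2 units) between COAD and TNBC and between PAAD and TNBC for the 30 genes (y axis), with 95% intervals, filled where the adjusted p was under 0.05. Against TNBC, COAD has filled sterol genes on the right and FASN and ACACA on the left, and PAAD has HMGCS1 and SQLE on the left and NSDHL, EBP and FADS2 on the right. The fit did not use the replicate block.

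Lists around the pathway were counted in the same fits, where 0 to 3 genes of a list were too low to be tested. Of 10 genes that process or sense SREBPs, 1 was altered in PAAD, where 8.33% of all genes were, and 3 in TNBC, where 21% were, and none in COAD or PRAD. RNF145, a ubiquitin ligase that acts on SCAP, fell in PAAD (log2 -0.32, adjusted p = 0.00138) and in TNBC (log2 -0.28, adjusted p = 0.000922), and MBTPS2, the protease that frees the factors in the Golgi, rose in TNBC (log2 0.23, adjusted p = 0.00844). The medians of this list lay between -0.067 and 0.029. Of 11 genes of the isoprenoid side branches, 1 was altered, SRD5A3 of dolichol synthesis. It fell in TNBC (log2 -0.16, adjusted p = 0.0218), where 11.3% of all genes fell. Uptake, transport and storage of sterols was covered by 12 genes. In PAAD 2 of them rose, where 4.72% of all genes did. These were NPC1, which exports cholesterol from lysosomes (log2 0.30, adjusted p = 0.0184), and GRAMD1B, a sterol carrier with 0.554, 0.317 and 0.83 CPM in controls (log2 1.15, adjusted p = 0.0431). In TNBC 2 fell, where 11.3% of all genes did, the lipoprotein receptor VLDLR (log2 -0.30, adjusted p = 0.0152) and NPC2 (log2 -0.24, adjusted p = 0.00459). In COAD and PRAD none passed the test.

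Among 5 genes of LXR and sterol efflux, which answer to excess sterol, the cholesterol exporter ABCA1 rose in PAAD from 21.3, 28.9 and 30.3 CPM to 37.7, 40.7 and 42.8 CPM (log2 0.59, adjusted p = 0.00273), without overlap. NR1H3, which encodes the LXR-alpha receptor, rose in COAD (log2 0.26, adjusted p = 0.0373) and TNBC (log2 0.42, adjusted p = 0.00273), and none of the 5 was altered in PRAD. Over all genes, 4.72% rose in PAAD, 1.47% in COAD and 9.65% in TNBC. Of 8 genes that supply acetyl-CoA and NADPH, ME1, the cytosolic malic enzyme, rose in PAAD (log2 0.40, adjusted p = 0.0078), PRAD (log2 0.49, adjusted p = 0.019) and TNBC (log2 0.26, adjusted p = 0.0165). In PAAD PGD rose too (log2 0.21, adjusted p = 0.0154), in TNBC IDH1 rose and the citrate carrier SLC25A1 fell (log2 -0.15, adjusted p = 0.0289), and in COAD none was altered. In PRAD 2.4% of all genes rose, and in TNBC 11.3% fell.

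Of 13 genes of elongation and desaturation outside the members, 3 fell and 1 rose in TNBC, where 11.3% and 9.65% of all genes did, HACD1 (log2 -0.53, adjusted p = 0.0364) and ELOVL1 (log2 -0.19, adjusted p = 0.00251) being the largest. In PRAD 1 fell, ELOVL7 (log2 -0.35, adjusted p = 0.0297), where 0.58% of all genes fell. Of 5 genes of fatty acid activation, ACSL5 rose in COAD (log2 0.45, adjusted p = 0.0377), ACSL1 in PAAD (log2 0.22, adjusted p = 0.0379), and ACSL3 (log2 0.13, adjusted p = 0.0355) and ACSL1 (log2 0.11, adjusted p = 0.0282) in TNBC. Over all genes, 1.47%, 4.72% and 9.65% rose in COAD, PAAD and TNBC. Glycerolipid synthesis and lipid droplets were covered by 12 genes. In PAAD 3 rose and 0 fell, where 4.72% of all genes rose, led by the phosphatidate phosphatases LPIN2 (log2 0.61, adjusted p = 3.31e-05) and LPIN1 (log2 0.55, adjusted p = 0.000542). In TNBC 3 fell and 0 rose, where 11.3% of all genes fell, led by the droplet coat genes PLIN3 (log2 -0.45, adjusted p = 0.000169) and PLIN2 (log2 -0.36, adjusted p = 0.000127). GPAT3, an acyltransferase, rose in PRAD, where 2.4% of all genes rose, from 0.545, 1.7 and 1.31 CPM to 16.8, 8.26 and 5.86 CPM (log2 3.10, adjusted p = 0.0296). Whether these lists differed between cell lines was not tested. Of 9 genes of fatty acid oxidation, CPT1A, which admits fatty acids to mitochondria, fell in COAD (log2 -0.21, adjusted p = 0.016) and rose in TNBC (log2 0.24, adjusted p = 0.00299) together with ETFDH (log2 0.23, adjusted p = 0.00995), and HADHB (log2 -0.27, adjusted p = 0.00724) and ACAA2 (log2 -0.25, adjusted p = 0.0188) fell in PAAD. Over all genes, 1.09% fell in COAD, 9.65% rose in TNBC and 3.62% fell in PAAD.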

How the data were processed

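Per the submitters' processing notes and the file headers, trimmed reads were aligned with STAR (hg38), freed of duplicates, and counted on exons by featureCounts 2.0.3. The values that the authors deposited are whole counts per gene, not normalized, in a table of the 6 PRAD libraries, made without the paired-end option, and a table of the other 18. Duplicate removal on single reads left no PRAD gene above 0.995 counts per exonic base, which limits abundant genes there. The members, the other lists and the tests were chosen with earlier results of these data known.

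Counts were analyzed in R 4.3.3 with edgeR 4.0.16 (filterByExpr, TMM, robust quasi-likelihood fit, two-sided F-test), each cell line alone, and p-values were adjusted by Benjamini and Hochberg's method across the whole table. An adjusted p under 0.05 was called altered, with no minimum fold change, and values after ± of a log2 fold change are standard errors. Differences between cell lines were tested in 1 fit of 24 libraries in 8 groups, for 6 pairs. The scripts were tested on simulated data. Library values are given for altered members (at most 8 per cell line) and for INSIG1, SREBF1, SREBF2, HMGCS1, SQLE, LSS, FASN and SCD, and from other lists at most the 2 altered genes with the largest change per cell line. Of 58051 identifiers, 56948 matched a symbol. Gene coordinates and lengths come from the count tables, and the coordinates of the promoter stretches from the RefSeq windows.

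Pairing was checked as the correlation of deviations from the group means between libraries with the same replicate number in the titles, over genes with a mean CPM of at least 10. It was 0.41, 0.31 and 0.62 in PAAD, 0.3, 0.18 and 0.61 in PRAD and 0.29, 0.32 and 0.63 in TNBC. These all exceeded the limit of 0.1 used, so the libraries were taken as paired. The main fits and the tests between cell lines nevertheless did not use this pairing. A member that did not pass the test therefore did not pass it in the unpaired fit, and the replicate block is given as an alternative. In COAD it was 0.4, 0.08 and 0.5, and replicate 2 fell short of the limit, so pairing was not taken as shown there. Alternatives were DESeq2 1.42.0, its size factors, other filters, all 24 libraries in 1 fit, the replicate block, removal of a spline trend (5 degrees of freedom) with gene length and GC content, and each library left out. A version of the PRAD counts corrected for same-start reads was added after seeing the data, and it called 0 members, with 550 genes called in all.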

Additional observations from a re-analysis of the deposited data

Results flagged for a closer look

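In 25 cases the Ocoxin response of a member differed between 2 cell lines by edgeR's test of the difference (adjusted p under 0.05 over 24631 genes). That test did not use the replicate block. Each value is the log2 fold change in the first cell line minus that in the second. COAD minus PAAD gave 0.49 for TM7SF2, 0.4 for HMGCS1, 0.33 for MSMO1, 0.26 for SQLE, 0.24 for FDFT1 and 0.24 for IDI1, and -0.2 for ACLY and -0.19 for SCD. COAD minus TNBC gave 0.58 for TM7SF2, 0.34 for NSDHL, 0.31 for IDI1 and 0.27 for EBP, and -0.37 for ACACA and -0.53 for FASN. PAAD minus PRAD gave -0.62 for HMGCS1, -0.35 for SQLE, -0.34 for MSMO1 and 0.31 for FADS2. PAAD minus TNBC gave -0.49 for HMGCS1, -0.29 for SQLE, 0.23 for NSDHL, 0.28 for EBP and 0.28 for FADS2. PRAD minus TNBC gave 0.29 for SC5D and 0.42 for STARD4. Only COAD and TNBC shared a dilution, and in the other pairs cell line and dilution cannot be told apart. The part of PRAD's separate counting in its differences was not tested. Groups of 3 libraries are too small for the check of single libraries that stand apart.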

How the results depend on the processing

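No altered member changed sign under any alternative run. Among members that were not altered, sign changes were counted only for INSIG1, SREBF1, SREBF2, HMGCS1, SQLE, LSS, FASN and SCD. They occurred in 10 combinations of gene and cell line, with values from -0.08 to 0.03 and adjusted p of 0.109 or more. The calls over all genes are given after each count of members. The count of altered members in COAD (4, with 451 genes in all) was 8 with DESeq2 (513), 1 with all 24 libraries in 1 fit (288), 8 after removal of the length and GC trend (687), 13 with the replicate block (1925), 6 of them fatty acid genes that were lower, and 16 with trend removal and block (2636), and 0 to 5 with 1 library left out. In COAD the correlation of replicate 2 (0.08) was below the limit of 0.1 used for pairing, so pairing was not taken as shown there. In PAAD (6, with 1440) it was 14 with the block (3998), 10 with trend removal (2337) and 12, all lower, with both (3387). In PRAD (0, with 508) it was 1 without a filter (1092), 1 with trend removal (2439) and 13 with trend removal and block (5479). In TNBC (8, with 3644) it was 14 without a filter (4220), 17 with the block (5878) and 20 with trend removal and block (5725). The block lost no call of a member that the fit without it had made. The cause of these changes was not tested.

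The sterol median with 1 library left out ranged from -0.26 to -0.095 in PAAD and from -0.18 to -0.096 in TNBC, and in PRAD it was -0.023 with all 24 libraries in 1 fit, -0.075 with trend removal and -0.075 with trend removal and block. The fatty acid median with 1 library left out ranged from 0.039 to 0.081 in PAAD and from -0.062 to 0.0046 in PRAD, where it was -0.11 with trend removal, with or without the block.

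Members whose response differed numbered, with the block, 15 for COAD and PAAD, 4 for COAD and PRAD and 13 for COAD and TNBC. They numbered 10 for PAAD and PRAD (7.87% of all genes), 10 for PAAD and TNBC (10.4%) and 7 for PRAD and TNBC (8.87%). The share over all genes was not counted for the COAD pairs with the block or for the settings that follow. These changes in count therefore cannot be read as particular to the members. With only the 12 libraries of both cell lines they numbered 4 for COAD and PAAD, 2 for PAAD and PRAD, 2 for PAAD and TNBC and 4 for PRAD and TNBC. DESeq2 gave 1 for COAD and PRAD and 5 for PRAD and TNBC, DESeq2 size factors gave 2 for PAAD and TNBC and 1 for PRAD and TNBC, and no filter gave 1 for COAD and PRAD. With 1 library left out the counts ranged from 2 to 8 for COAD and PAAD, 0 to 1 for COAD and PRAD, 3 to 6 for COAD and TNBC, 2 to 5 for PAAD and TNBC and 0 to 2 for PRAD and TNBC. With 3 libraries a group and decreases mostly under 0.3 on the log2 scale, small changes may have gone undetected.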
